A study of Canis lupus familiaris with 18 samples.

Results

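The genes described here encode the proteasome and its regulators, and 40 of the 29993 rows in the deposited counts belonged to them. They were chosen by symbol, as every row whose symbol starts with PSMA, PSMB, PSMC, PSMD, PSME, PSMF or PSMG followed by a digit. The 40 rows carried 39 symbols, because PSMD8 was listed under 2 Ensembl identifiers. The rule also took in 2 genes that are named after a proteasome partner and are not subunits, PSMC3IP and PSME3IP1. PSMA1, PSMA2, PSMA4, PSMC3, PSMC5, PSMC6, PSMD5, PSMD6, PSMG1 and PSMG4 were not analysed here, so the alpha ring and the ATPase ring are covered only in part. Of the 40 rows, 38 had enough counts to be tested. The row listed as PSME3 held 0 to 3 counts per dog and that of PSMA8, a testis form of an alpha subunit, held 0 to 2, so both were at or under 3 counts, the limit taken for detection, and only French bulldog 1 reached it, for PSME3.

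The samples were formalin-fixed, paraffin-embedded prosencephalic high grade oligodendroglioma (HGO), a glial brain tumor, from pet dogs with spontaneous disease. The methods state that the tissue was resected surgically before any trial treatment. RNASeq libraries from 11 French bulldogs were compared with those of a comparison group of 7 dogs, made up of 4 boxers and 3 Boston terriers, to find how HGO differs between related breeds. No normal brain was included, so a difference between breeds and a difference between their tumors cannot be told apart. The study lists age and sex by dog, but the labels do not tie the boxer and Boston terrier libraries to that list, so neither was used. Per the study, French bulldogs had a lower mean age, more females in proportion and other tumor locations, and none of these was adjusted for. In bulk tissue, fewer cells of a type and less RNA per cell cannot be told apart either.

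Total counts per dog ranged from 8212452 to 13169880. Levels are given as normalised CPM, that is, counts scaled to the effective library size of each dog. They were not divided by gene length and were therefore compared between dogs and not between genes. A level of 3 counts, the smallest taken as detectable, was 0.223 to 0.351 CPM, a limit that covers counting error only. French bulldogs 2 and 8 share a case number. Their counts were more alike than those of any other pair within a breed (pairs across breeds were not compared), with a chi-square per degree of freedom of 9.40 against at least 32.6, which exceeds counting noise, as separate extractions of the same tumor also could. The study lists them with the same age, sex and tumor location, so they may be 1 dog, and the 11 French bulldog libraries may stand for fewer dogs. They were kept as 2 libraries, as labelled, and with their counts summed 8 members were higher (6.45% of all genes) and 1 lower (3.11%) at an unadjusted p under 0.05 by edgeR, against 10 (7.02%) and 1 (3.55%) as labelled. French bulldog 6 went against its label. Its oligodendrocyte lineage markers summed to 43.5 CPM, against at least 1237 in the other 17 dogs, with no count of OLIG2, and its macrophage and microglia markers summed to 8470 CPM against 83.1 to 511 and its lymphocyte markers to 368 CPM against 58.7 to 133. Its astrocyte and neuron markers summed to 22.5 and 0.833 CPM, against at least 515 and 62.5 in the other French bulldogs. Per the study, histology gave HGO in all cases, and this dog was kept. Results on the proteasome genes that rest on this library are given with and without it.

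The proteasome degrades proteins that have been tagged with ubiquitin. Its barrel-shaped core, the 20S particle, is built of stacked rings of alpha and beta subunits, and a 19S cap of ATPases and other subunits recognises, unfolds and feeds in the substrate. In cells exposed to interferon, the catalytic beta subunits PSMB5, PSMB6 and PSMB7 are replaced by PSMB8, PSMB9 and PSMB10, which gives the immunoproteasome, whose peptides are well suited to presentation on MHC class I molecules.

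Most proteasome genes had a higher mean in French bulldogs than in the comparison group, by small amounts. The log2 fold change was above 0 for 34 of the 38 rows tested (89.5%), against 53.7% of all 16495 genes tested. Its median over the 38 rows was 0.32, against 0.04 over all genes. By edgeR's quasi-likelihood test, 10 rows were higher in French bulldogs at an unadjusted p under 0.05 (26.3%, against 7.02% of all genes), namely PSMA3, PSMA7, PSMB1, PSMB3, PSMB8, PSMD1, PSMD11, PSMD14, PSME1 and PSMF1. A single row was lower, the second row of PSMD8 (2.63%, against 3.55% of all genes). No row passed after Benjamini-Hochberg adjustment over all genes, where edgeR called 0.00606% of all genes.

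The counts differed between tests. DESeq2 put 11 members higher and 1 lower at an unadjusted p under 0.05, 9 of the higher ones being shared with edgeR, against 6.41% and 3.21% of all genes. It called PSMB1 alone among the members after adjustment, at a share of 0.278% over all genes. Limma-voom put 6 members higher, against 3.89% of all genes, 1 lower, against 5.42%, and called none after adjustment, against 0.0121%. Without French bulldog 6, the edgeR count was 9 higher (6.92% of all genes), all of them among the 10, and 1 lower (3.93%), with a median log2 fold change of 0.26 (0.05 over all genes). The count of 10 rested on single dogs of the comparison group, since it was 4 without boxer 1 (5.72% of all genes), 5 without boxer 3 (5.48%), 4 without boxer 5 (5.14%) and 6 without Boston terrier 6 (5.09%).

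**Figure D1:**
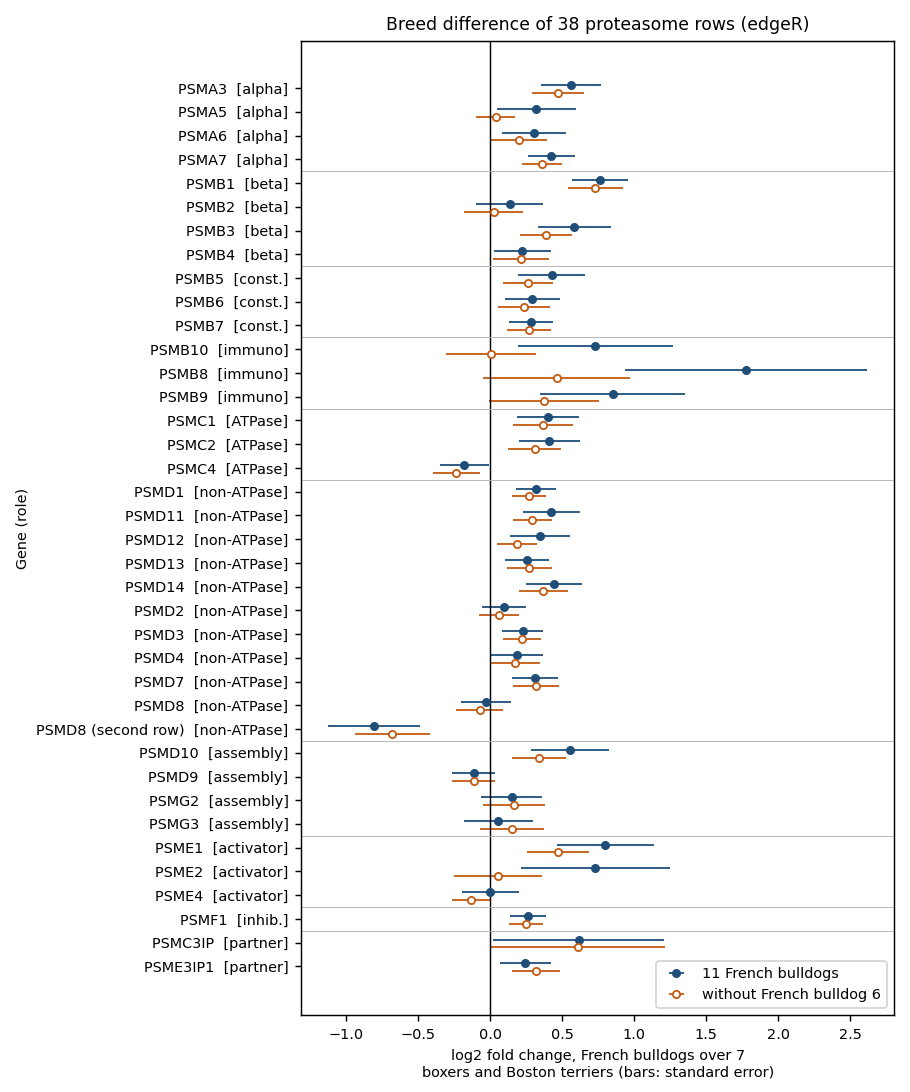
The log2 fold change of each of the 38 tested rows (horizontal axis, French bulldogs over the 7 dogs of the comparison group; bars, standard error), with all 11 French bulldogs (filled) and without French bulldog 6 (open), ordered by role (vertical axis). Filled points lie above 0 for 34 rows, and the open points of PSMB8, PSMB9, PSMB10, PSME1 and PSME2 lie left of the filled ones.

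Taken by breed, the French bulldogs were compared with each part of the comparison group, and both comparisons share the same French bulldogs. Against the 4 boxers, 8 members were higher at an unadjusted p under 0.05 by edgeR (4.70% of all genes) and the median log2 fold change was 0.41. Against the 3 Boston terriers only PSMB1 was (1.59% of all genes), with a median of 0.32. For no member did the 11 French bulldogs and the 7 other dogs separate without overlap, as 0.00606% of all genes did with French bulldogs higher and 0.0485% with French bulldogs lower. At least 6 French bulldogs lay above every comparison dog for 5 members, PSMB1, PSMB7, PSMD1, PSMD3 and PSMD11, which compares with 5.89% of all genes.

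PSMB1 (ENSCAFG00000004116), a structural beta subunit of the core, had the smallest p of the members. PSMB1 was already listed by the study as higher in French bulldogs in these same libraries, so its rank here is not independent evidence. Its level in the 11 French bulldogs ran from 19.7 to 46.9 CPM with a median of 28.9. The 7 comparison dogs ran from 13.9 to 27.5 CPM with a median of 18.03. All 11 French bulldogs lay above the comparison median and 7 lay above every comparison dog, while French bulldog 10 was the lowest of its breed and boxer 3 the highest of the comparison group. The means were 33.1 ± 9.26 CPM (SD, n = 11) and 19.5 ± 4.60 CPM (SD, n = 7). This gave a log2 fold change of 0.76 (SE 0.20; unadjusted p = 0.000929, adjusted p = 0.433 by edgeR's quasi-likelihood test). It was 0.73 without French bulldog 6, 0.75 against boxers alone and 0.79 against Boston terriers alone. By the DESeq2 Wald test it was 0.78 with an adjusted p of 0.0413, and the adjusted p was 0.0517 without French bulldog 6.

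The other beta subunits without catalytic activity varied. PSMB3 ran from 8.29 to 30.0 CPM in French bulldogs (median 10.1) and from 5.94 to 12.5 CPM in the comparison group (median 7.997). Only Boston terrier 7 of the comparison dogs reached the French bulldog range, and French bulldog 6 was far above the rest of its breed, whose highest value was 14.3 CPM. The log2 fold change of PSMB3 was 0.59 (SE 0.26, unadjusted p = 0.0336 by edgeR) and 0.38 without French bulldog 6 (p = 0.0467). PSMB2 had the smallest difference of this group, 0.14 on the log2 scale (SE 0.23) and 0.03 without French bulldog 6, and its sign turned against the Boston terriers alone (-0.15).

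In the alpha ring, whose subunits form the gate of the core, the 4 tested rows all had a log2 fold change above 0, from 0.31 for PSMA6 to 0.56 for PSMA3, and 2 were higher at an unadjusted p under 0.05 (7.02% of all genes). Without French bulldog 6, PSMA5 went from 0.32 to 0.04 and PSMA6 from 0.31 to 0.20. PSMA3 ran from 23.9 to 66.5 CPM in French bulldogs (median 31.0) and from 17.2 to 35.3 CPM in the comparison group (median 24.9). PSMA7 ran from 23.8 to 51.3 CPM (median 32.7) and from 17.2 to 33.1 CPM (median 24.1), respectively. For each gene, 5 French bulldogs lay above every comparison dog, among which Boston terrier 7 was the highest, and the groups overlapped. On the log2 scale the difference was 0.56 (SE 0.21, p = 0.0138) for PSMA3 and 0.43 (SE 0.16, p = 0.0168) for PSMA7 by edgeR, both unadjusted, and 0.47 and 0.36 without French bulldog 6. PSMA3, PSMA5 and PSMA6 overlap other annotated genes, so their counts are uncertain.

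**Figure D2:**
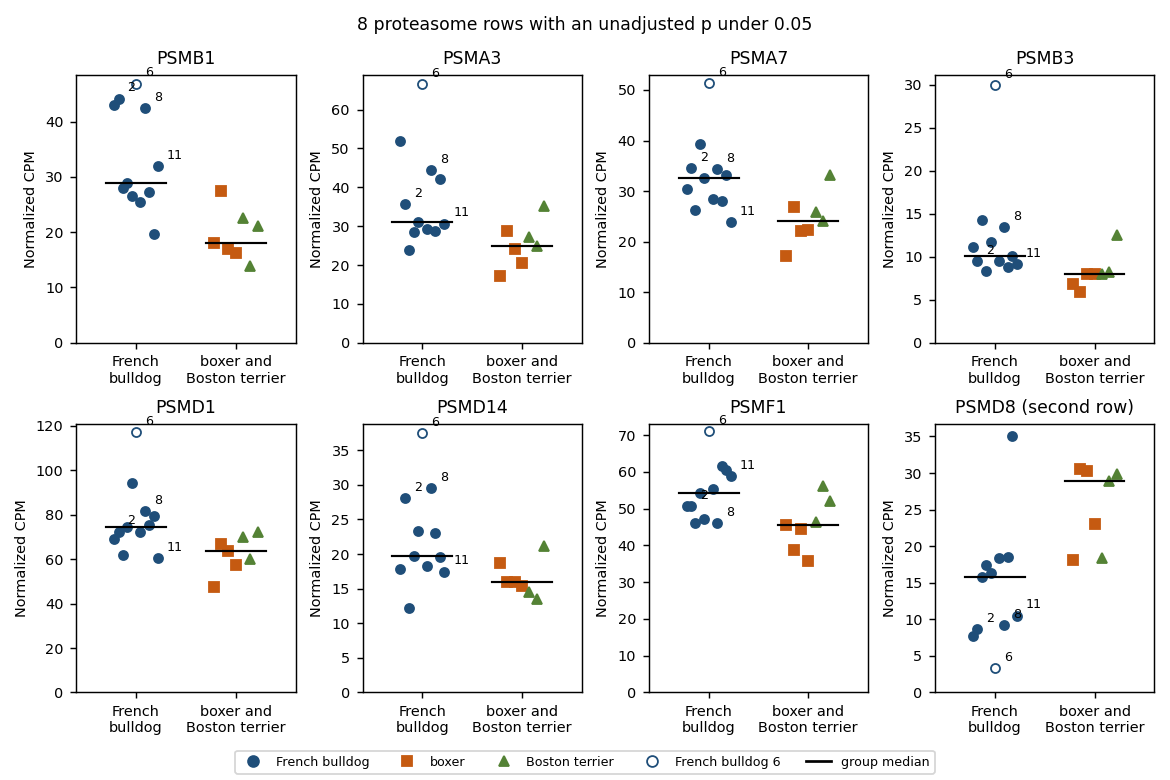
Normalised CPM (vertical axes, from 0) in each dog for 8 of the rows with an unadjusted p under 0.05, French bulldogs at the left and the comparison group at the right of each panel, with the group median as a line. The groups overlap in every panel, French bulldog 6 (open circle) is the highest dog in the first 7 panels, and the second row of PSMD8 is the one with lower French bulldogs.

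For the constitutive catalytic subunits, 0 of 3 had an unadjusted p under 0.05 by edgeR, DESeq2 or limma-voom, with log2 fold changes above 0 for all 3. Over all genes these tests put 7.02%, 6.41% and 3.89% higher and 3.55%, 3.21% and 5.42% lower. PSMB5 (ENSCAFG00000011295), which cuts after hydrophobic residues, ran from 15.7 to 51.2 CPM in French bulldogs (median 19.01) and from 11.8 to 21.4 CPM in the comparison group (median 17.97). PSMB6 (ENSCAFG00000015855), the caspase-like subunit, ran from 10.9 to 26.0 CPM (median 15.6) and from 9.22 to 20.2 CPM (median 12.3). PSMB7 (ENSCAFG00000020224), the trypsin-like subunit, ran from 18.7 to 42.7 CPM (median 29.1) and from 18.8 to 27.8 CPM (median 25.6). French bulldog 6 was the highest dog for PSMB5 and PSMB6 and French bulldog 2 for PSMB7, for which 8 French bulldogs exceeded every comparison dog. Their differences on the log2 scale were 0.43 (SE 0.23, p = 0.0813), 0.29 (SE 0.19, p = 0.140) and 0.28 (SE 0.15, p = 0.0817), unadjusted, by edgeR, and 0.26, 0.23 and 0.27 without French bulldog 6.

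The immunoproteasome subunits had larger differences in the mean, carried by 1 library. PSMB8 (ENSCAFG00000057521), the counterpart of PSMB5, ran from 0.407 to 73.9 CPM in French bulldogs (median 4.01) and from 1.00 to 5.73 CPM in the comparison group (median 3.38). PSMB9 (ENSCAFG00000030725), the counterpart of PSMB6, ran from 1.23 to 24.5 CPM (median 4.24) and from 1.51 to 6.16 CPM (median 3.29). PSMB10 (ENSCAFG00000020333), the counterpart of PSMB7, ran from 2.24 to 41.0 CPM (median 4.80) and from 3.34 to 6.31 CPM (median 4.39). French bulldog 6 was the highest dog for all 3 genes and French bulldog 11 the next. In all, 3, 3 and 2 French bulldogs lay above every comparison dog for PSMB8, PSMB9 and PSMB10, and 2, 1 and 4 lay below every one, so the groups overlapped. French bulldog 6 exceeded the median of the other 17 dogs 21.4-fold for PSMB8, 7.44-fold for PSMB9 and 9.35-fold for PSMB10, and it held 64.3% of the summed PSMB8 level of the 11 French bulldogs.

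For PSMB8 the log2 fold change was 1.78 (SE 0.84, unadjusted p = 0.0479 by edgeR) and 0.46 without French bulldog 6 (SE 0.51, p = 0.377). For PSMB9 it was 0.85 (SE 0.50, p = 0.108) and 0.38 (SE 0.38, p = 0.338). For PSMB10 it was 0.73 (SE 0.54, p = 0.191) and 0.01 (SE 0.31, p = 0.979). DESeq2, which by default replaces counts it finds extreme, gave 0.44 for PSMB8, 0.89 for PSMB9 (p = 0.0728) and -0.01 for PSMB10 with all 18 dogs. Outside French bulldog 6, PSMB8 held 4 to 95 counts per dog, so that its lowest values rest on few reads. Of the macrophage and microglia markers, 8 of 15 tested were higher in French bulldogs at an unadjusted p under 0.05 by edgeR (7.02% of all genes), 1 by DESeq2 (6.41%), 0 by limma-voom (3.89%) and 0 by edgeR without French bulldog 6 (6.92%). For 13 of the 15, French bulldog 6 was the highest of the 18 dogs. The exceptions were the microglia genes CX3CR1, at 2.50 CPM against 11.6 to 55.9 CPM in the other dogs, and P2RY12, at 6.87 CPM against 4.22 to 27.5 CPM. Of the lymphocyte markers, it was the highest dog for 14 of 15 listed, CD4 being the exception. Among these were the T-cell gene CD3E, at 22.3 CPM against at most 0.703 CPM, and PRF1, a cytotoxic lymphocyte gene, at 7.60 CPM against at most 0.0914 CPM. The part of these cells in the level of the immunoproteasome subunits was not tested.

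**Figure D3:**
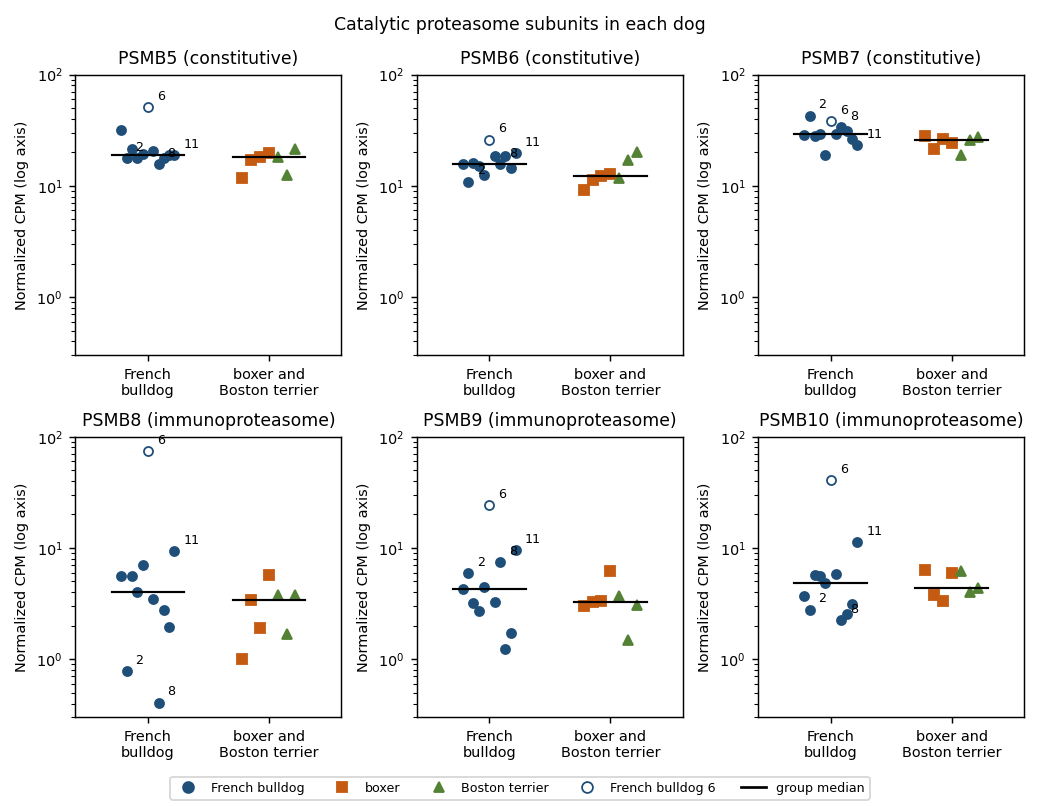
Normalised CPM (vertical axes, log scale) of the constitutive subunits (top) and the immunoproteasome subunits (bottom) in each dog, with the group median as a line and French bulldogs 2, 6, 8 and 11 numbered. With French bulldog 6 (open circle) left aside, the immunoproteasome subunits spread more widely among French bulldogs, and PSMB8 is lowest in French bulldogs 8 and 2.

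To compare the exchange of subunits within a tumor, the log2 ratio of each immunoproteasome subunit to its constitutive counterpart was taken in each dog. Such a ratio does not depend on library scaling, and gene length cancels in the difference between groups. For PSMB8/PSMB5, French bulldogs averaged -2.41 ± 1.55 (SD, n = 11) and the comparison dogs -2.63 ± 0.60 (SD, n = 7), with a difference of 0.23 (two-sided exact permutation over 31824 splits of the dogs, p = 0.725). For PSMB9/PSMB6 the difference was 0.15 (exact permutation p = 0.753), and for PSMB10/PSMB7 it was -0.12 (exact permutation p = 0.820). The adjusted p over the 3 ratios was 0.820 for each. When French bulldog 6 was left out, the differences were -0.07, -0.02 and -0.38 (exact permutation over 19448 splits, p = 0.898, 0.956 and 0.339).

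French bulldog 6 had ratios of 0.53, -0.09 and 0.11, above all other dogs, whose highest values were -0.99, -0.88 and -1.03. French bulldog 11 followed for PSMB8/PSMB5 and PSMB10/PSMB7, while French bulldog 2 did so for PSMB9/PSMB6. At the lower end, PSMB8/PSMB5 was -4.40 in French bulldog 2 and -5.10 in French bulldog 8, below the lowest comparison dog at -3.50. PSMB10/PSMB7 was also lowest in these libraries, at -3.91 and -3.89. The range of each ratio in French bulldogs thus enclosed that of the comparison group.

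**Figure D4:**
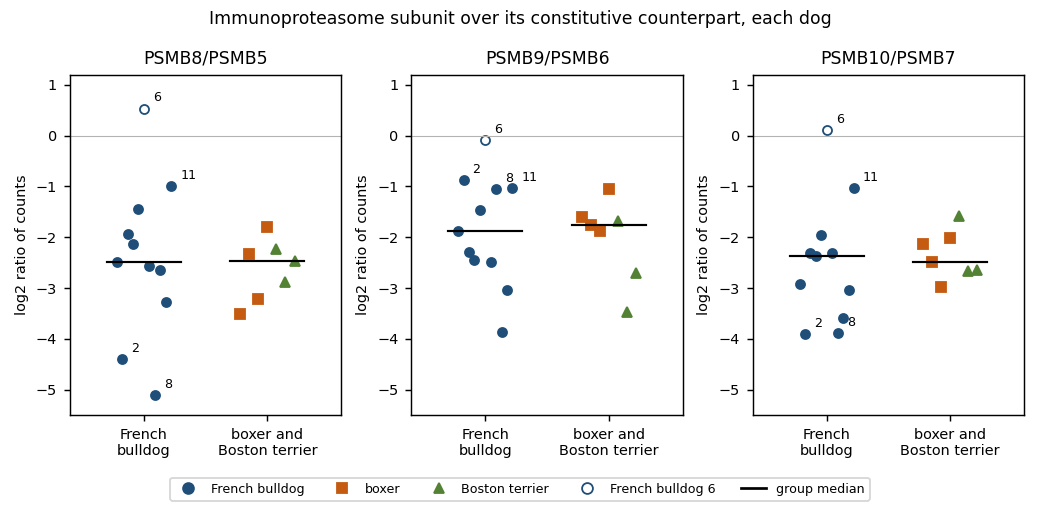
The log2 ratio of counts (vertical axes) of PSMB8 to PSMB5, PSMB9 to PSMB6 and PSMB10 to PSMB7 in each dog, with the group median as a line and French bulldogs 2, 6, 8 and 11 numbered. The group medians lie close together in each panel, and French bulldog 6 (open circle) lies above all other dogs.

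From dog to dog, the immunoproteasome subunits had larger SDs than the constitutive ones among French bulldogs, and in the comparison group too except for PSMB10, which was below PSMB6. Without French bulldog 6, the SD of log2 CPM among French bulldogs was 1.27 for PSMB8, 0.86 for PSMB9 and 0.68 for PSMB10, against 0.28 for PSMB5, 0.26 for PSMB6 and 0.31 for PSMB7. In the comparison group the SDs were 0.80, 0.57 and 0.37 against 0.32, 0.38 and 0.21. Fewer reads were counted on the immunoproteasome subunits, and counting error was not removed from these SDs.

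Of 9 Pearson correlations (r) between catalytic subunits over the 18 dogs, 4 had an adjusted p under 0.05 by permutation. Without French bulldog 6, 1 of these did so, PSMB8 with PSMB10. By rank (rho) without that dog, PSMB5 with PSMB8 did so instead. PSMB8 and PSMB10 varied together (r = 0.85, permutation p = 0.00013, adjusted p = 0.00117; rho = 0.62, permutation p = 0.00656, adjusted p = 0.0295). Without the 2 dogs farthest from the median of PSMB8, r was 0.54, and without French bulldog 6 alone it was 0.64 (permutation p = 0.00546, adjusted p = 0.0491). Without that dog rho was 0.55 (permutation p = 0.0233, adjusted p = 0.105). When French bulldogs 2 and 8, which may be 1 dog, were then left out as the farthest, r was 0.45. With their counts summed instead and all dogs kept, r was 0.835 (permutation p = 0.00065, adjusted p = 0.00292) and rho 0.55 (permutation p = 0.0224, adjusted p = 0.0792). Within groups, r was 0.79 in the 10 French bulldogs without number 6 (permutation p = 0.00598, adjusted p = 0.0538) and 0.13 in the comparison group (exact permutation p = 0.782), where it was 0.80 without the 2 farthest dogs. Whether r differed between the groups was not tested.

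PSMB5 and PSMB8, which occupy the same position in the ring, had an r of 0.81 (permutation p = 0.00028, adjusted p = 0.00126; rho = 0.75, permutation p = 0.00061, adjusted p = 0.00549). Without the 2 farthest dogs r was 0.60, and without French bulldog 6 it was 0.58 (permutation p = 0.0135, adjusted p = 0.0607). Without French bulldog 6, rho was 0.70 (permutation p = 0.0025, adjusted p = 0.0225). The other counterparts gave an r of 0.27 for PSMB6 with PSMB9 and 0.04 for PSMB7 with PSMB10. For PSMB9 and PSMB10, r went from 0.68 (permutation p = 0.00552, adjusted p = 0.0166; rho = 0.27) to 0.06 without the 2 farthest dogs, and for PSMB5 and PSMB6 from 0.59 (permutation p = 0.00983, adjusted p = 0.0221; rho = 0.46) to 0.38, so both rest on those dogs.

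PSMB8 and PSMB9, which lie on either side of the peptide transporter gene TAP1 in the RefSeq annotation, parted in 2 libraries, a pattern picked after its values were seen. French bulldog 2 had 7 counts of PSMB8 and 53 of PSMB9, and French bulldog 8 had 4 and 73, so that their log2 ratios of PSMB8 to PSMB9 were -2.83 and -4.03. The ratio lay between -1.54 and 1.59 in the other 16 dogs. These are the libraries that share a case number, so the pattern may stand for 1 dog. The r between PSMB8 and PSMB9 was 0.54 over the 18 dogs (permutation p = 0.0283, adjusted p = 0.0509; rho = 0.39) and 0.12 without French bulldog 6 (permutation p = 0.661). It was 0.70 when French bulldogs 2 and 8 were then left out as the farthest dogs.

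In the 19S cap, the ATPases that unfold the substrate gave 0 of 3 tested rows under an unadjusted p of 0.05 by edgeR, and 0 by DESeq2 and limma-voom (7.02%, 6.41% and 3.89% of all genes higher and 3.55%, 3.21% and 5.42% lower). Their log2 fold changes ran from -0.18 for PSMC4 (SE 0.17, p = 0.313) to 0.41 for PSMC2 (SE 0.21, p = 0.0695). Of the 11 rows of 19S subunits that are not ATPases, 3 were higher and 1 was lower at an unadjusted p under 0.05 by edgeR (7.02% and 3.55% of all genes). These counts were also 3 and 1 without French bulldog 6 (6.92% and 3.93%), 4 and 1 by DESeq2 (6.41% and 3.21%) and 1 and 1 by limma-voom (3.89% and 5.42%).

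PSMD1, a scaffold subunit of the cap, ran from 60.6 to 117 CPM in French bulldogs (median 74.4) and from 47.5 to 72.1 CPM in the comparison group (median 63.8). PSMD11, a subunit of the lid, ran from 24.1 to 77.6 CPM (median 34.4) and from 25.1 to 31.3 CPM (median 28.2). PSMD14, the enzyme that removes ubiquitin chains from the substrate, ran from 12.2 to 37.5 CPM (median 19.7) and from 13.5 to 21.1 CPM (median 15.9). French bulldog 6 was the highest dog for each, and 8, 6 and 5 French bulldogs, respectively, lay above every comparison dog. By edgeR, the log2 fold changes were 0.32 (SE 0.14, p = 0.0342), 0.43 (SE 0.20, p = 0.0454) and 0.45 (SE 0.19, p = 0.0332), unadjusted. They were 0.27, 0.29 and 0.37 without French bulldog 6, with an unadjusted p of 0.0334, 0.0450 and 0.0428.

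PSMD8, a lid subunit, was listed in 2 rows. The row ENSCAFG00000055085 ran from 3.33 to 35.1 CPM in French bulldogs (median 15.7) and from 18.1 to 30.5 CPM in the comparison group (median 28.9). French bulldog 6 was the lowest dog, 8 of 11 French bulldogs lay below every comparison dog, and French bulldog 10 was the highest dog of all. Its difference on the log2 scale was -0.81 (SE 0.32, unadjusted p = 0.0211 by edgeR) and -0.68 without French bulldog 6 (p = 0.0183). The row ENSCAFG00000005931, added after its values were seen, ran from 19.4 to 40.0 CPM (median 26.7) and from 16.4 to 37.7 CPM (median 26.3), with a log2 fold change of -0.03 (SE 0.17, p = 0.867). RefSeq lists PSMD8 as 1 gene, and how reads were divided between the rows is not given in the sources used here, so both levels are uncertain.

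**Figure D5:**
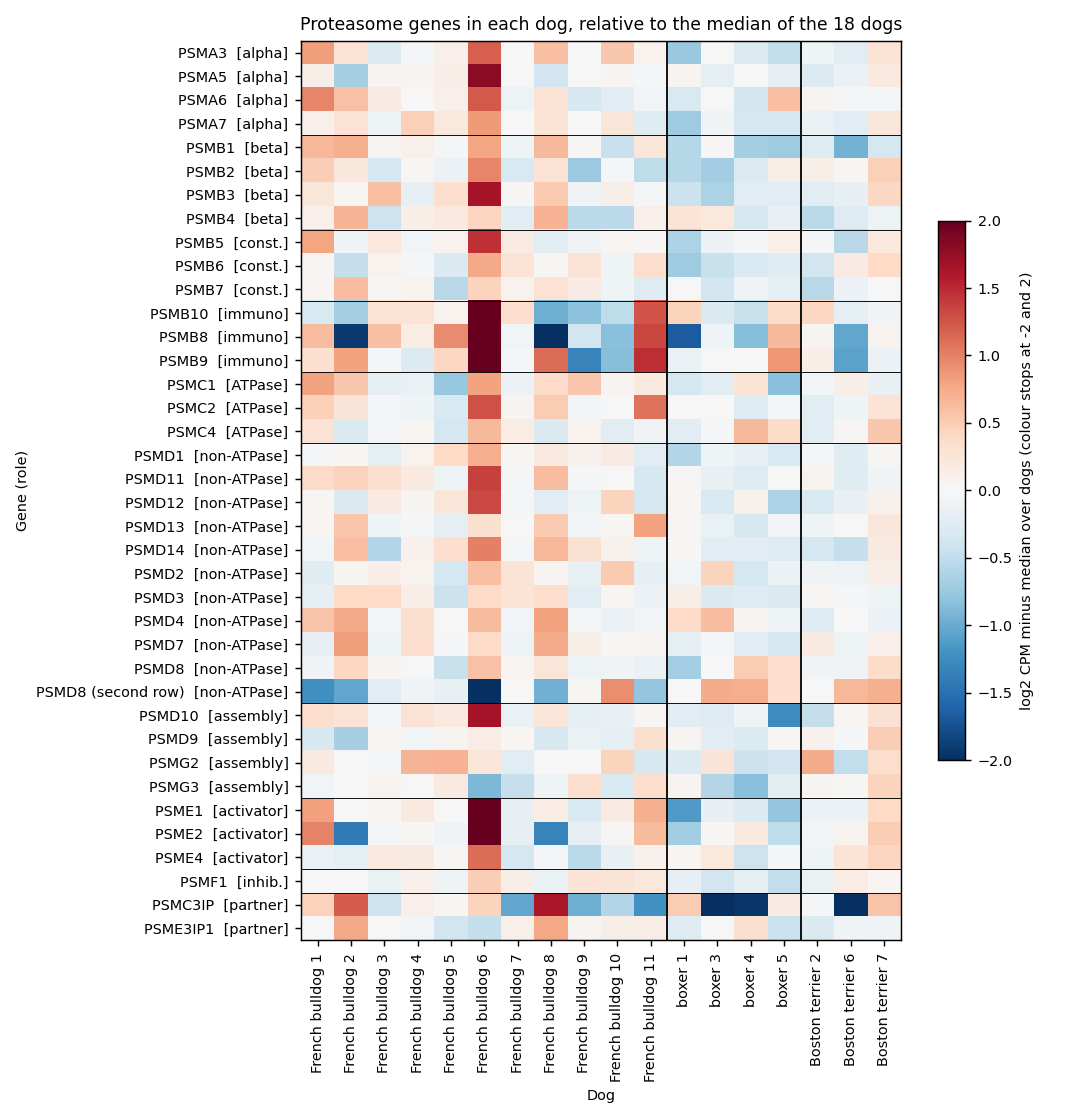
Log2 CPM of the 38 tested rows (vertical axis, grouped by role) in each of the 18 dogs (horizontal axis), as the difference from the median of the row over the dogs, with red for higher and blue for lower levels. The column of French bulldog 6 is red in most rows, and the rows of the immunoproteasome subunits, PSME1, PSME2, PSMC3IP and the second row of PSMD8 show some of the strongest colours.

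The activators that can cap the core in place of 19S differed among themselves. PSME1, a subunit of the interferon-inducible 11S activator, ran from 19.8 to 115 CPM in French bulldogs (median 27.0) and from 11.02 to 32.4 CPM in the comparison group (median 21.7). Its partner PSME2 ran from 3.79 to 84.3 CPM (median 10.4) and from 6.41 to 15.1 CPM (median 10.8). French bulldog 6 was the highest dog for both, at 4.72-fold and 8.14-fold the median of the other dogs, whereas French bulldog 2 was the lowest for PSME2 and boxer 1 for PSME1. The log2 fold change of PSME1 was 0.80 (SE 0.34, unadjusted p = 0.0293 by edgeR) and 0.47 without French bulldog 6 (SE 0.22, p = 0.0429). That of PSME2 was 0.73 (SE 0.52, p = 0.174) and 0.06 (SE 0.31, p = 0.855). PSME4, which encodes the nuclear activator PA200, gave 0.00 (SE 0.20, p = 0.991), with a sign that turned under several alternatives. PSME1 overlaps EMC9 in the annotation, and EMC9 gave 0.09 (SE 0.43, p = 0.826).

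PSMF1, an inhibitor of the core, ran from 46.1 to 71.2 CPM in French bulldogs (median 54.2) and from 35.9 to 56.3 CPM in the comparison group (median 45.5). Every French bulldog lay above the comparison median, and 4 of the 7 comparison dogs lay below every French bulldog. On the log2 scale the difference was 0.26 (SE 0.13, unadjusted p = 0.0494 by edgeR) and 0.25 without French bulldog 6 (p = 0.0490). It was 0.41 against boxers alone and 0.10 against Boston terriers alone. Of the assembly chaperones, 0 of 4 tested had an unadjusted p under 0.05 by edgeR (7.02% of all genes higher and 3.55% lower), while DESeq2 gave PSMD10 an unadjusted p of 0.0404 (6.41% of all genes higher). Their log2 fold changes ran from -0.12 for PSMD9 (SE 0.15) to 0.56 for PSMD10 (SE 0.27, p = 0.0541 by edgeR), the latter being 0.34 without French bulldog 6. The partner genes gave 0.61 (SE 0.59) for PSMC3IP, which acts in meiotic recombination, and 0.24 (SE 0.18) for PSME3IP1.

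French bulldog 6 was the highest of the 18 dogs for 24 of the 38 tested rows, as it was for 20.8% of all genes, and the lowest for 3. French bulldogs 2 or 8 were highest for 7 rows. In the comparison group boxer 1 was most often the lowest dog, for 7 rows, followed by boxer 5 for 5.

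Among genes that work with the proteasome, such as shuttle factors, deubiquitinases and the transcription factor NFE2L1, 4 of 17 tested were higher at an unadjusted p under 0.05 by edgeR and 0 were lower, against 7.02% and 3.55% of all genes. The median log2 fold change was 0.17, against 0.04 over all genes. There were also 4 higher without French bulldog 6 (6.92% of all genes), while DESeq2 gave 6 higher (6.41%) and limma-voom 4 higher (3.89%) and 1 lower (5.42%). UBLCP1, a phosphatase of the nuclear proteasome, gave 0.61 (SE 0.20, p = 0.00579) and TXNL1, a thioredoxin-like protein bound to the cap, 0.50 (SE 0.19, p = 0.0176). ECPAS, an adaptor of the proteasome, gave 0.47 (SE 0.18, p = 0.0202) and RAD23B, which delivers ubiquitinated proteins, 0.44 (SE 0.15, p = 0.00947).

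The genes that load peptides onto MHC class I molecules take up what the immunoproteasome makes. In this list 7 of 10 tested were higher at an unadjusted p under 0.05 by edgeR (7.02% of all genes), 0 were lower, and the median log2 fold change was 0.71. There were 5 without French bulldog 6 (6.92% of all genes), with a median of 0.49, and with all dogs DESeq2 gave 6 (6.41%) and limma-voom 5 (3.89%). TAP1, between PSMB8 and PSMB9, gave 0.67 (SE 0.27, p = 0.0242) and 0.45 without French bulldog 6 (p = 0.0222).

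The interferon response list gave 1 of 11 higher by edgeR (7.02% of all genes) with a median log2 fold change of 1.32, and 0 (6.92%) with a median of 0.74 without French bulldog 6. DESeq2 gave 3 higher (6.41%) and 1 lower (3.21%), and limma-voom 0 higher (3.89%). Its summed level was 1708 CPM in French bulldog 6 and 1188 CPM in French bulldog 11, the dogs with the highest summed immunoproteasome subunits (139 and 30.2 CPM). At the low end the orders differed. The interferon sum was lowest in French bulldogs 2 and 8 (36.0 and 39.6 CPM), and the immunoproteasome sum in French bulldogs 9 and 10 (6.55 and 6.81 CPM). Its part in the level of PSMB8, PSMB9 and PSMB10 was not tested. Of the markers of lymphocytes, 1 of 4 tested (CD2) was higher by edgeR and DESeq2 (7.02% and 6.41% of all genes) and 0 by limma-voom (3.89%). The other 11 listed did not pass the filter on low counts, and French bulldog 6 was the highest dog for each of them. Without French bulldog 6, 0 were higher (6.92%) and 1 (CD4) was lower (3.93%) by edgeR. Of those of the oligodendrocyte lineage, astrocytes, neurons and endothelium, 0 of 8, 0 of 5, 0 of 8 and 0 of 5 were higher or lower at an unadjusted p under 0.05 by edgeR, DESeq2 or limma-voom (7.02%, 6.41% and 3.89% of all genes higher and 3.55%, 3.21% and 5.42% lower). Without French bulldog 6, edgeR put 1 of the oligodendrocyte lineage (OLIG2) lower and 0 of the others (3.93% of all genes lower).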

How the data were processed

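Per the labels and the methods, RNA from FFPE scrolls was sequenced with a ribodepletion kit. The authors trimmed reads with Trimmomatic 0.33, mapped them to canFam6 with HISAT2 2.1.0 and used featureCounts for gene quantification. The deposited values are raw counts that were not normalised, and every sample column was used. Strand and multi-mapping settings are not given in the sources used here, so counts of the 11 of 39 member symbols that overlap another gene in RefSeq (UU_Cfam_GSD_1.0, used for names and neighbours only) are uncertain.

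Groups came from the sample titles. The study describes 18 dogs, but 2 French bulldog libraries (2 and 8) carry the same case number, and p-values measure the spread between libraries. Breeds were compared on all genes with edgeR 4.0.16 (R 4.3.3), using TMM normalization, filterByExpr, the robust quasi-likelihood F test, no covariate and Benjamini-Hochberg adjustment at 0.05. The standard error is the log2 fold change over the square root of F. Ratios used a pseudocount of 0.5 and exact permutation tests, and correlations used log2 CPM (prior count 2) with 100000 permutations, or all of them in the comparison group. Alternatives were DESeq2 1.42.0, limma-voom 3.58.1, DESeq2 size factors and upper quartile scaling in edgeR, other count filters, dispersions without the robust option, the table without small RNAs, the sum of French bulldogs 2 and 8, parts of the comparison group, a block over the dog numbers and each dog left out. DESeq2 without French bulldog 6 and the unblocked fit of numbers 1 to 7 were added after seeing the data. The members and the lists (pathway, class I loading, interferon, cell types) were chosen with earlier results of these data known. Named in full were PSMB1, the catalytic subunits, PSME1, PSME2 and members with an unadjusted p under 0.05, and otherwise the extremes of each role. The code was tested on simulated data. In simulated counts of 11 against 7 libraries, edgeR recovered 13 of 195 genes changed 2-fold (6.67%) at an adjusted p under 0.05, with 0 false calls. At 4-fold it recovered 138 of 198 (69.7%), with 4 false calls. A row that did not pass the adjustment may thus still differ. Python 3.11.15 with scipy 1.17.1, pandas 2.3.3, numpy 2.4.6 and matplotlib 3.10.9 was used for tables, permutations and plots.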

Additional observations from a re-analysis of the deposited data

How the results depend on the processing

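Members that were higher outnumbered those that were lower in all 34 alternatives, and the median log2 fold change of the members stayed between 0.25 and 0.41. The count of 10 members higher at an unadjusted p under 0.05 (7.02% of all genes) was 6 with limma-voom (3.89%), 1 against Boston terriers only (1.59%), 1 against the comparison dogs numbered 5 to 7 (2.28%), and 4 to 11 when single dogs were left out (5.09% to 8.89%). The count lower, 1 in the main test and whenever a dog was left out, was 2 with no filter on low counts (3.49%) and 0 against boxers, Boston terriers, or the comparison dogs numbered 1 to 4 or 5 to 7. Only the DESeq2 Wald test with all dogs gave a member (1) an adjusted p under 0.05. The smaller comparison groups hold fewer samples. The library names of comparison dogs 5 to 7 also begin a new run of sample numbers, reusing numbers that French bulldog libraries carry. What that numbering stands for is not stated, and the cause of the changes was not tested. With a replicate block over the numbers 1 to 7 the higher count was 3 (3.58% of all genes), against 10 in the same dogs without it (7.79%). Same-numbered dogs deviated together (r over 0.1) for 3 of 7 numbers, with r from -0.50 to 0.20, and 2 of 7 correlated best with their own number, so the numbers were not taken as a pairing.

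Of 916 values of 27 named rows (both rows of PSMD8 among them) under alternatives, 25 reversed, and 1 (PSMB1, DESeq2) passed the adjusted threshold, which no member passed in the main test. At an unadjusted p under 0.05, 97 of 373 values of the 11 rows under it in the main test were no longer under it, and 13 of 543 values of the other rows came under it. PSMB10 was -0.0124 with DESeq2. PSMB2 was -0.15 against Boston terriers and -0.15 against dogs 5 to 7, and PSMD9 was 0.0255 against boxers and 0.00808 against dogs 1 to 4. The PSMD8 row with a log2 fold change near 0 was 0.0803 against dogs 1 to 4, 0.0309 with the block, 0.0181 in the same dogs without it and -0.127 to 0.0715 with single dogs left out. PSME4 was -0.0115 with upper quartile scaling, -0.0296 with at least 10 counts in every dog, -0.0413 with limma-voom, -0.13 against Boston terriers, -0.14 against dogs 5 to 7, -0.14 with DESeq2 without French bulldog 6 and -0.133 to 0.0683 with single dogs left out.

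The differences in log2 ratio had no sign that held. PSMB8/PSMB5 was -0.027 against dogs 5 to 7 and -0.068 to 0.495 with single dogs left out. PSMB9/PSMB6 was -0.30 against boxers, -0.14 against dogs 1 to 4 and -0.0898 to 0.354 with single dogs left out. PSMB10/PSMB7 was 0.0246 with French bulldogs 2 and 8 summed and -0.375 to 0.0271 with single dogs left out. Without French bulldog 6, r was 0.34 for PSMB5 and PSMB6, -0.016 for PSMB5 and PSMB7, 0.12 for PSMB8 and PSMB9, 0.33 for PSMB9 and PSMB10, 0.58 for PSMB5 and PSMB8, -0.14 for PSMB6 and PSMB9 and -0.50 for PSMB7 and PSMB10. For PSMB8 and PSMB9 it was 0.56 with DESeq2 size factors and 0.68 with French bulldogs 2 and 8 summed. The adjusted permutation p was then 0.045 and 0.0145, against 0.0509 in the main test. Depth limits rows such as PSMB8, with 4 and 7 counts in its lowest libraries, and PSMC3IP, with 1 in Boston terrier 6.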

Other observations

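The nearest genes with a name, and not only a locus number, around PSMB1 in the RefSeq annotation were picked after values of some were seen. On 1 side lie TBP and PDCD2, and on the other FAM120B. TBP, which encodes the TATA-box binding protein, gave 16.2 ± 4.15 CPM (SD, n = 11) in French bulldogs and 11.8 ± 3.15 CPM (SD, n = 7) in the comparison group. Its log2 fold change was 0.45 (SE 0.20, unadjusted p = 0.0346 and adjusted p = 0.446 by edgeR). PDCD2, a gene of ribosomal protein handling, gave 24.9 ± 5.21 CPM (SD, n = 11) and 17.0 ± 1.98 CPM (SD, n = 7). Its log2 fold change was 0.55 (SE 0.15, unadjusted p = 0.00185 and adjusted p = 0.433 by edgeR). FAM120B gave a log2 fold change of 0.09 (SE 0.24, unadjusted p = 0.6999 by edgeR). PSMB1, TBP and PDCD2 were thus higher at an unadjusted p under 0.05, as 7.02% of all genes were, and FAM120B was not among them.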
